A study of Homo sapiens with 12 samples.

Results

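The genes described are 9 that are read as direct output of BMP, TGF-beta and Notch signalling: *ID1*, *ID2*, *ID3*, *ID4*, *HES1*, *HES4*, *HEY1*, *SMAD6* and *SMAD7*. They were taken by name from a table of 26485 genes, and all 9 passed the filter on low counts that left 14498 genes for testing. They were measured by RNA sequencing in PEO1 and COV362, established ovarian cancer cell lines used as models of the high-grade serous type. Cells had been given 20 nM prexasertib, which blocks the replication checkpoint kinase CHK1 and also CHK2, or DMSO vehicle. Each of the 4 groups (PEO1 with prexasertib, PEO1 with DMSO, COV362 with prexasertib, COV362 with DMSO) held 3 libraries lettered A, B and C. Both lines are labelled parental and shared 1 medium, DMEM with heat-inactivated serum, insulin and other supplements, so serum factors were present in every group. The labels do not state how long the drug was left on, nor that replicates came from separate cultures, so the p-values reflect the spread of these libraries alone, which may be technical.

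BMP ligands act through receptor kinases that phosphorylate SMAD1, SMAD5 and SMAD9, and TGF-beta ligands act through SMAD2 and SMAD3. Both routes use SMAD4 and switch on *SMAD7*, and the BMP route also switches on *ID1*, *ID2*, *ID3* and *SMAD6*. ID proteins have a helix-loop-helix but no DNA-binding basic region and hold basic helix-loop-helix factors off DNA, and SMAD6 and SMAD7 block the receptors in a feedback loop. Notch receptors, once cleaved, bring their intracellular part to the DNA-binding factor RBPJ, which switches on *HES1*, *HES4* and *HEY1*, repressors that work with Groucho corepressors.

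Since *HES1* and *HES4*, of the 9 genes, were the HES genes called higher in treated PEO1 cells, the 250 bases before their RefSeq start sites (GRCh38.p14) are shown, read 5′ to 3′ on the gene's strand, with the letters TGGGAA, the core of the RBPJ site, in capitals. The *HES1* stretch is chr3:194135898-194136147 on the plus strand, and the *HES4* stretch is chr1:1000098-1000347 on the minus strand.
HES1: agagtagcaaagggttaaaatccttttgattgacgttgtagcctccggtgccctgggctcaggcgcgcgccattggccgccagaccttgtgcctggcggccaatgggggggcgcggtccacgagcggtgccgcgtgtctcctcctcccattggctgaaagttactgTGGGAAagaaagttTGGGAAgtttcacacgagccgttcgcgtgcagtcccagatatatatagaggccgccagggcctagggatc
HES4: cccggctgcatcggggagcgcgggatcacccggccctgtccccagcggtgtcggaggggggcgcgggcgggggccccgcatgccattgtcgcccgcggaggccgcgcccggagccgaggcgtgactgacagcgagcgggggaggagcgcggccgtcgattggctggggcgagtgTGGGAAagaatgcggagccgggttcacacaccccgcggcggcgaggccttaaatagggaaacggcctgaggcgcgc
TGGGAA, searched on both strands, was found in these windows 2 times for *HES1*, beginning 84 and 70 bases before the RefSeq start. For *HES4* it was found 1 time, 76 bases before the RefSeq start. The counted *HES4* exons reach 1000172, inside that window, so the motif lies at the edge of the counted gene. The counted *HES1* exons begin at 194136142, near the end of its window. Of 35116 RefSeq promoters, 20.8% held TGGGAA. The longest run that both sequences share is 12 bases, tgTGGGAAagaa, and it holds the motif. The *HES1* window also held 4 matches to CACGNG, the class C site that HES proteins bind, found in 26.7% of promoters, and 3 to the N box CACNAG, found in 32% and overlapping the class C matches at 2 places. It held 1 match to the cyclic AMP response core TGACG, found in 21.2% of promoters. Among the other members with an entry, *ID1* had 1 N box match, *ID3* had 1 match to TGACG, and 1 of the 3 *SMAD7* promoters had 2 TGGGAA matches. Neither GGCGCC, the GC-rich SMAD site of BMP targets (in 16.4% of promoters), nor the AP-1 site TGANTCA (in 6.57%) matched in any member window searched. For *HEY1* no promoter sequence was used. These matches describe letters only.

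Library totals ranged from 9390790 to 18262805 counts, and the PEO1 libraries held 15541151 to 18260493. All 8 epithelial markers were tested, and their sum, carried mostly by *KRT7*, *KRT8* and *KRT18*, was 3700 to 4330 CPM in PEO1 with prexasertib, 7260 to 8490 in PEO1 with DMSO, 2280 to 3490 in COV362 with prexasertib and 2200 to 2770 in COV362 with DMSO. The defining markers were uneven: *CDH1* averaged 0.285 CPM in COV362 with prexasertib and 0.346 CPM with DMSO, *EPCAM* 449 CPM in PEO1 with prexasertib and 418 CPM with DMSO but 10.2 CPM in COV362 with prexasertib and 11.9 CPM with DMSO. *KRT19* was likewise low in COV362 (11.6 CPM with prexasertib and 9.43 CPM with DMSO), and *MUC1* in PEO1 (1.11 CPM with prexasertib and 0.88 CPM with DMSO). Summed ovarian markers were 124 to 142 CPM in PEO1 with prexasertib, 193 to 236 in PEO1 with DMSO, 140 to 168 in COV362 with prexasertib and 207 to 217 in COV362 with DMSO, with *SOX17* at 0 in PEO1. Of 5 leukocyte markers 2 were tested, and their sum, mostly *CD68*, was 32.4 to 39.2 CPM in PEO1 with prexasertib, 37.2 to 42.6 in PEO1 with DMSO, 50.1 to 60.2 in COV362 with prexasertib and 31.3 to 42.3 in COV362 with DMSO. The 4 endothelial markers, mostly *CDH5*, summed to 1.43 to 3.68 CPM in PEO1 with prexasertib, 6.49 to 7.57 in PEO1 with DMSO, 55 to 56 in COV362 with prexasertib and 80.7 to 96.5 in COV362 with DMSO. Fibroblast markers (2 of 5 tested, *LUM* at 0 in every library) summed to 3.93 to 9.58 CPM over all libraries. The part of these markers in the results was not tested. In bulk samples, a different mix of cells and a different RNA level per cell cannot be told apart.

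Prexasertib moved 6 of the 9 genes in PEO1, 3 up and 3 down. *ID2*, *HES1* and *HES4* rose, and *ID1*, *ID3* and *SMAD6* fell. In COV362 none of the 9 passed the test. Across all tested genes, 29.3% were called in PEO1 (14.7% higher and 14.6% lower) and 0.828% in COV362, by edgeR's quasi-likelihood test at a Benjamini-Hochberg adjusted p under 0.05. The PEO1 groups did not overlap for 7 of the 9 genes, against 50.1% of all tested genes, and the COV362 groups for 3, against 14.5%. Levels are given in CPM, read counts divided by the library size after scaling by the trimmed mean of M-values, with mean ± SD over 3 libraries, and fold changes are on the log2 scale with their standard error (SE).

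**Figure D1:**
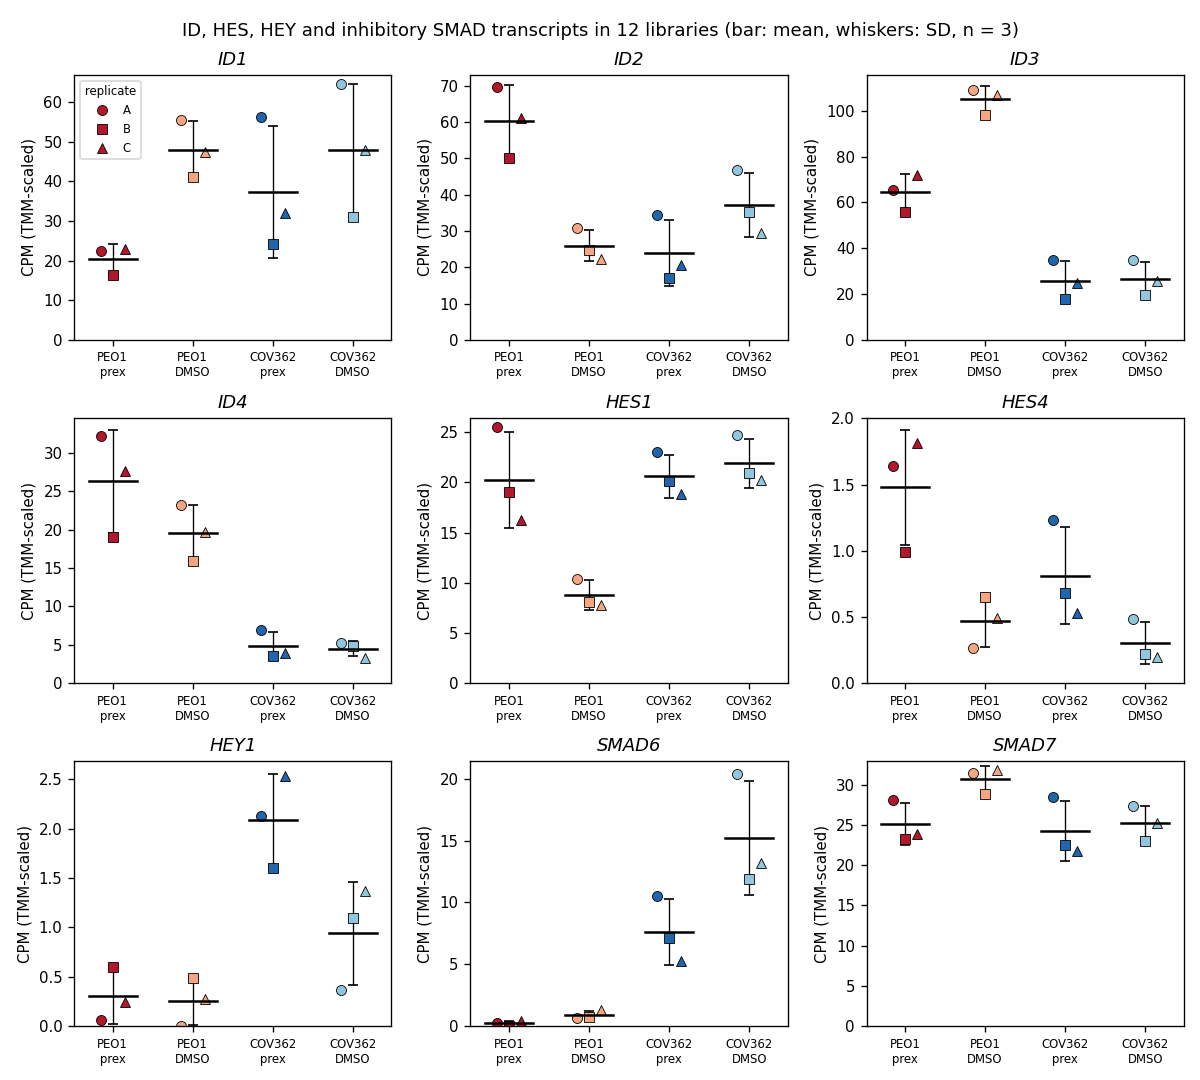
Level of each of the 9 genes in CPM on a linear axis from 0, by group (prex is prexasertib), with a point for each of the 12 libraries shaped by letter, bars for group means and whiskers for SD (n = 3). *ID2* and *HES1* lie higher in prexasertib-treated PEO1 libraries than in every PEO1 DMSO library, and *ID1* and *ID3* lie lower.

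Among the ID genes, which encode inhibitors of basic helix-loop-helix factors, *ID1* and *ID2* moved in opposite directions in PEO1. *ID1* (hg38, chromosome 20, 31605283 to 31606514, plus strand) had 22.4, 16.3 and 22.9 CPM in libraries A, B and C of PEO1 with prexasertib, against 55.4, 41 and 47.4 CPM with DMSO. The groups did not overlap, and *ID1* fell by 1.22 ± 0.30 (SE) on the log2 scale (edgeR adjusted p = 0.00823), to 0.429 of the DMSO level. *ID2* (chromosome 2, 8681983 to 8684453, plus strand) had 69.8, 50.1 and 61.2 CPM in PEO1 with prexasertib, against 30.7, 24.8 and 22.3 CPM with DMSO. Every treated library was above every DMSO library, and *ID2* rose 2.33-fold, a log2 change of 1.22 ± 0.25 (edgeR adjusted p = 0.00259). Both calls held when any 1 of the 12 libraries was left out.

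*ID3* (chromosome 1, 23557930 to 23559794, minus strand) had 65.4, 55.8 and 72.1 CPM in PEO1 with prexasertib, against 109, 98.2 and 107 CPM with DMSO. The groups did not overlap, and it fell by 0.71 ± 0.23 on the log2 scale (edgeR adjusted p = 0.0309). The *ID3* call was lost without PEO1 DMSO A, PEO1 DMSO C, PEO1 prexasertib A or PEO1 prexasertib B, with changes of -0.84 to -0.66 and adjusted p up to 0.0836 over all the libraries left out, and correction for exon length and GC content gave -0.42 (adjusted p = 0.00761). *ID4* (chromosome 6, 19837370 to 19842200, plus strand) had 32.2, 19 and 27.7 CPM in PEO1 with prexasertib, against 23.2, 15.9 and 19.7 CPM with DMSO. These groups overlapped, and its change of 0.42 ± 0.26 did not pass (edgeR adjusted p = 0.247). A transcript listed as AL022068.1 in GENCODE overlaps *ID4* on the opposite strand, and with an unstranded kit their reads cannot be told apart.

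In COV362 the ID genes did not pass the test in the fit of group means. *ID1* had 56.2, 24.1 and 32 CPM with prexasertib, against 64.5, 31.1 and 47.9 CPM with DMSO, a log2 change of -0.35 ± 0.30 (edgeR adjusted p = 0.707). *ID2* had 34.3, 17.1 and 20.7 CPM with prexasertib, against 46.8, 35.1 and 29.4 CPM with DMSO, a log2 change of -0.63 ± 0.25 (edgeR adjusted p = 0.305). For both genes the groups overlapped, yet the treated library was lower than the DMSO library of the same letter in 3 of 3 letters. In COV362 that also held for *HES1* and *SMAD6*, and *HES4* and *HEY1* were higher in 3 of 3 letters. The share of all genes with 1 direction in every letter was not counted. Within COV362, libraries A and B correlated most with the library of the same letter, but C slightly more with another letter (0.14 against 0.13). With the letter as a block common to both lines, *ID2* in COV362 fell by 0.66 ± 0.14 (edgeR adjusted p = 0.00396). With a block of its own for each line, *ID1* in COV362 fell by 0.38 ± 0.11 as well (edgeR adjusted p = 0.0193). *ID3* averaged 25.8 ± 8.6 CPM with prexasertib and 26.6 ± 7.59 CPM with DMSO in COV362, and *ID4* averaged 4.83 ± 1.86 CPM with prexasertib and 4.45 ± 0.993 CPM with DMSO (SD, n = 3 each).

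Within the ID group, *ID1* and *ID2* stood in a different order in treated and in vehicle PEO1 cells. Per kilobase of exon, the 4 genes summed to 120 ± 17.2 CPM per kb in PEO1 with prexasertib and 148 ± 13.5 with DMSO, and to 70.1 ± 27.6 in COV362 with prexasertib and 88.6 ± 24.7 with DMSO (SD, n = 3 each). *ID2* made up 37% ± 2.22 of that sum in PEO1 with prexasertib and 12.8% ± 1.49 with DMSO. *ID1* made up 13.9% ± 0.595 in PEO1 with prexasertib and 26.2% ± 1.56 with DMSO. The per-kilobase level of *ID2* over that of *ID1* was 2.82, 2.77 and 2.41 in PEO1 libraries A, B and C with prexasertib, against 0.5, 0.547 and 0.424 with DMSO. *ID2* was thus the more abundant of the pair in every treated PEO1 library and the less abundant in every PEO1 DMSO library. The same ratio was 0.552, 0.642 and 0.583 in COV362 with prexasertib and 0.656, 1.02 and 0.554 with DMSO, where the groups overlap. *ID3* was the largest share in both PEO1 groups, 43.6% ± 2.7 with prexasertib and 57.5% ± 2.52 with DMSO. In COV362 *ID1* had the largest mean share, 42.8% ± 2.18 with prexasertib and 43.2% ± 5.47 with DMSO, although in COV362 DMSO B *ID2* had 37.8% and *ID1* 37.1%.

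**Figure D2:**
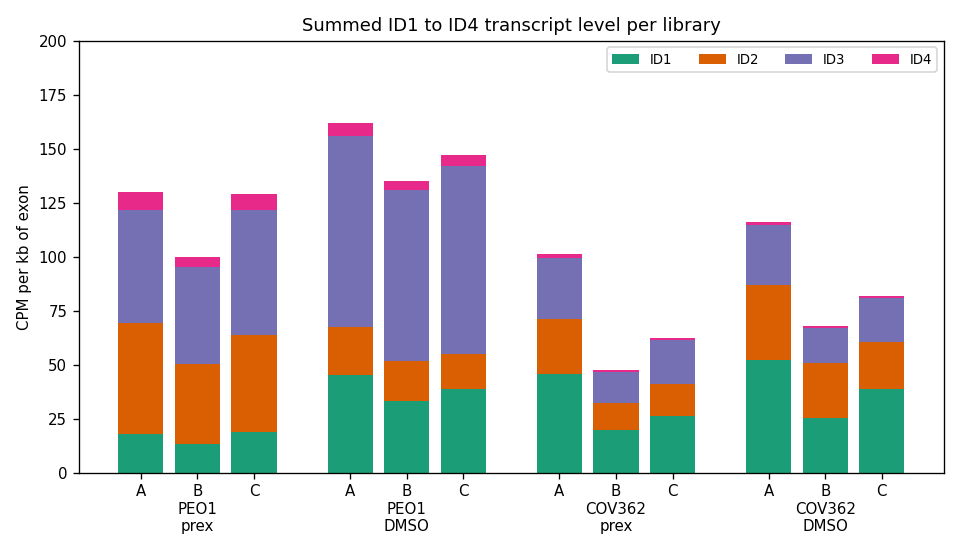
Stacked bars of the CPM per kilobase of exon of the 4 ID genes in each of the 12 libraries, by group (prex is prexasertib). Of the summed bar, *ID2* makes up 34.8% to 39.2% in the 3 treated PEO1 libraries and 11.1% to 13.9% in the 3 PEO1 DMSO libraries.

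Of the Notch-responsive repressors, *HES1* and *HES4* rose in PEO1. *HES1* (chromosome 3, 194136142 to 194138612, plus strand) had 25.5, 19 and 16.2 CPM in PEO1 with prexasertib, against 10.4, 8.03 and 7.75 CPM with DMSO. The groups did not overlap, and *HES1* rose 2.31-fold, a log2 change of 1.21 ± 0.20 (edgeR adjusted p = 0.000651), which held without any 1 library. In COV362 *HES1* had 23, 20.1 and 18.8 CPM with prexasertib, against 24.7, 20.9 and 20.2 CPM with DMSO, a log2 change of -0.08 ± 0.19 (edgeR adjusted p = 0.928). Treated PEO1 libraries thus overlapped both COV362 groups in *HES1* level, while PEO1 DMSO libraries lay below all the others.

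*HES4* (chromosome 1, 998962 to 1000172, minus strand) had few reads: 28, 18 and 30 counts in PEO1 with prexasertib, against 4, 12 and 9 counts with DMSO. That is 1.64, 0.989 and 1.81 CPM with prexasertib and 0.261, 0.651 and 0.495 CPM with DMSO. *HES4* rose by 1.62 ± 0.52 on the log2 scale in PEO1 (edgeR adjusted p = 0.0315), and the groups did not overlap. It entered the test mainly through the treated groups, where it was higher. The filter's cutoff of 0.61 CPM before scaling was reached in 3 PEO1 prexasertib and 2 COV362 prexasertib libraries. With DMSO, 1 PEO1 library and 0 COV362 libraries reached it. The *HES4* call was lost without PEO1 DMSO A, PEO1 DMSO B, PEO1 DMSO C, PEO1 prexasertib A or PEO1 prexasertib C (changes of 1.30 to 1.88, adjusted p up to 0.146), with no filter on low counts (1.56, adjusted p = 0.0771) and without the 4 A libraries (1.27, adjusted p = 0.118). With correction for length and GC content the change was 2.52. In COV362 *HES4* had 15, 11 and 9 counts with prexasertib, against 4, 4 and 3 counts with DMSO. These groups did not overlap either, and the log2 change of 1.51 ± 0.61 was close in size to that in PEO1 but did not pass (edgeR adjusted p = 0.313).

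*HEY1* (chromosome 8, 79764010 to 79767863, minus strand), a HES-related repressor, was near the detection limit in PEO1, with 1, 11 and 4 counts with prexasertib and 0, 9 and 5 counts with DMSO (log2 change 0.21 ± 0.89, edgeR adjusted p = 0.891). In COV362 *HEY1* had 26, 26 and 43 counts with prexasertib, against 3, 20 and 21 counts with DMSO. In CPM these were 2.13, 1.6 and 2.53 with prexasertib and 0.363, 1.1 and 1.37 with DMSO. The COV362 groups did not overlap, and the log2 change of 1.08 ± 0.69 did not pass (edgeR adjusted p = 0.576). Per kilobase, *HES1* made up 89.7% ± 3.36 of the summed level of these 3 repressors in PEO1 with prexasertib and 91.3% ± 4.87 with DMSO, and 89.9% ± 1.43 in COV362 with prexasertib and 95.8% ± 0.74 with DMSO (SD, n = 3 each).

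Of the inhibitory SMAD genes, *SMAD6* fell in PEO1 and *SMAD7* did not pass the test in either line in the fit of group means. *SMAD6* (chromosome 15, 66702336 to 66781999, plus strand), which encodes the inhibitor that acts mainly on BMP receptors, had 5, 1 and 7 counts in PEO1 with prexasertib, against 10, 14 and 24 counts with DMSO. That is 0.294, 0.0549 and 0.423 CPM with prexasertib and 0.653, 0.76 and 1.32 CPM with DMSO. *SMAD6* fell by 1.83 ± 0.58 on the log2 scale in PEO1 (edgeR adjusted p = 0.028), and the groups did not overlap. The *SMAD6* call was lost without PEO1 DMSO C, PEO1 prexasertib A or PEO1 prexasertib B (changes of -2.42 to -1.39, adjusted p up to 0.101) and with limma-voom (-2.01, adjusted p = 0.0725).

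In COV362, where *SMAD6* was much more abundant, it had 10.5, 7.09 and 5.24 CPM with prexasertib, against 20.4, 11.9 and 13.2 CPM with DMSO. These groups did not overlap, and the log2 change of -0.99 ± 0.35 did not pass in the fit of group means (edgeR adjusted p = 0.237). With the letter as a block, *SMAD6* in COV362 fell by 0.99 ± 0.28 (edgeR adjusted p = 0.0255). *SMAD7* (chromosome 18, 48919853 to 48950711, minus strand), the inhibitor of both BMP and TGF-beta receptors, had 28.1, 23.3 and 23.9 CPM in PEO1 with prexasertib, against 31.5, 28.9 and 31.8 CPM with DMSO. The PEO1 groups did not overlap, but the log2 change of -0.29 ± 0.15 did not pass in the fit of group means (edgeR adjusted p = 0.161). Under 11 alternative settings the *SMAD7* change in PEO1 ran from -0.37 to 0.02. It passed as lower in 3 of them, and it was 0.02 with correction for length and GC content. *SMAD7* averaged 24.2 ± 3.72 CPM in COV362 with prexasertib and 25.2 ± 2.2 CPM with DMSO (SD, n = 3 each).

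The COV362 count of 0 was also 0 with DESeq2 and with limma-voom. At an unadjusted p under 0.05, edgeR gave 3 members in COV362 (*HES4* higher, *ID2* and *SMAD6* lower), against 12.6% of all tested genes. With the letter as a block, 2 members were called in COV362, as given for *ID2* and *SMAD6*. That fit also called many more of all tested genes in COV362, as given under the alternatives below. The share of 0.828% is from the fit without the block and is no measure for these 2.

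**Figure D3:**
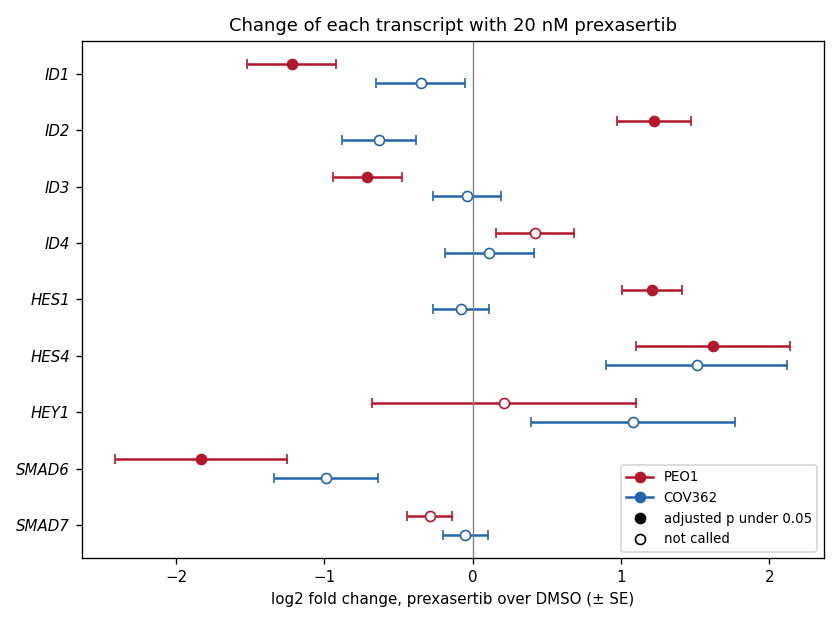
Log2 fold change of prexasertib over DMSO for each of the 9 genes in PEO1 and COV362, with bars of ± 1 SE from the fit over 12 libraries and filled points for an adjusted p under 0.05. *ID2* lies at 1.22 in PEO1 and at -0.63 in COV362, and *HES1* at 1.21 in PEO1 and at -0.08 in COV362.

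The difference between the lines was tested directly as the change in PEO1 minus the change in COV362, and 2 of the 9 genes passed, both with a positive difference, where 6.10% of all tested genes did (3.14% positive and 2.97% negative). *ID2* differed by 1.85 ± 0.35 on the log2 scale (edgeR adjusted p = 0.011), up in PEO1 and with a negative change in COV362. The *ID2* difference held without any 1 library. *HES1* differed by 1.29 ± 0.28 (edgeR adjusted p = 0.0183), a call lost without COV362 prexasertib C, PEO1 DMSO B, PEO1 DMSO C or PEO1 prexasertib A (1.04 to 1.38, adjusted p up to 0.0606). *ID1* differed by -0.87 ± 0.42 (edgeR adjusted p = 0.213) and *ID3* by -0.67 ± 0.33 (edgeR adjusted p = 0.215), and neither passed. *SMAD6* differed by -0.84 ± 0.67 (edgeR adjusted p = 0.464). The *HES4* difference was 0.11 ± 0.93 (edgeR adjusted p = 0.974), an error too wide to say whether the lines differ. With correction for length and GC content, the difference was -0.33 for *ID1* and -0.20 for *ID3*.

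The lines also differed before treatment. These comparisons use the same DMSO libraries as the drug comparisons above. Of the 9 genes, 4 were called between PEO1 DMSO and COV362 DMSO, 2 in each direction, where 57.7% of all tested genes were called (29.1% higher and 28.6% lower in PEO1), and the groups did not overlap for 5 genes, against 63.5% of all tested genes. *ID3* was 3.97-fold higher in PEO1 DMSO than in COV362 DMSO, with a log2 difference of 1.99 ± 0.24 (edgeR adjusted p = 7.38e-06). *ID4* was 4.44-fold higher, at 19.6 ± 3.63 CPM in PEO1 DMSO and 4.45 ± 0.993 CPM in COV362 DMSO (edgeR adjusted p = 2.51e-05). *SMAD6* was 16.3-fold lower in PEO1 DMSO, at 0.911 ± 0.358 CPM against 15.2 ± 4.62 CPM in COV362 DMSO, with a log2 difference of -4.02 ± 0.42 (edgeR adjusted p = 2.05e-06). *HES1* was 2.5-fold lower in PEO1 DMSO, at 8.74 ± 1.48 CPM against 21.9 ± 2.42 CPM in COV362 DMSO (edgeR adjusted p = 6.69e-05).

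*ID1* averaged 47.9 ± 7.23 CPM in PEO1 DMSO and 47.8 ± 16.7 CPM in COV362 DMSO, a log2 difference of 0.01 ± 0.30. *ID2* had a log2 difference of -0.51 ± 0.25 (edgeR adjusted p = 0.0928), *HEY1* one of -1.87 ± 0.81 (adjusted p = 0.0607) and *SMAD7* one of 0.29 ± 0.15 (adjusted p = 0.116). Between the DMSO groups, A and B also correlated most with the same letter, but C more with another letter (0.24 against 0.15). With the letter as a block these 3 genes passed, at edgeR adjusted p = 0.00225 for *ID2*, 0.03 for *HEY1* and 0.0383 for *SMAD7*. Without the block, *HEY1* also passed when COV362 DMSO A, PEO1 DMSO B or PEO1 prexasertib A was left out, and *ID2* when COV362 prexasertib A was. *SMAD6* made up 3.26% ± 1.14 of the summed per-kilobase level of *SMAD6* and *SMAD7* in PEO1 DMSO, against 40.2% ± 5.09 in COV362 DMSO (SD, n = 3 each).

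The libraries of 1 letter shared features. *ID1* was lowest in library B of all 4 groups. Across genes, library levels ran with exon length (Spearman's rho of -0.41 to -0.35 in A libraries and 0.13 to 0.44 in B libraries) and with GC content (-0.57 to -0.38 in B libraries). *ID1*, *ID2* and *ID3* have short exons (1232, 1364 and 1239 bases), and *ID4*, *SMAD6* and *SMAD7* have longer ones (3876, 3010 and 3444 bases). With the correction for length and GC content, *ID1* in PEO1 changed by -0.88.

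The genes most like each called member were found by the root mean square (RMS) difference of log2 CPM over the 12 libraries. Each gene was centred on its mean in each line. The candidates were 11774 tested genes averaging at least 1 CPM in both lines. *SMO*, which encodes the Hedgehog signal transducer, was nearest to *ID1* with an RMS difference of 0.12, and *STX10* followed at 0.14. For *ID2* the nearest were *C19orf68* at 0.18 and *ETHE1* at 0.20. For *ID3* they were *PDDC1* at 0.07 and *ARF5* at 0.08. For *HES1* both *ZNF490* and *CHCHD7* lay at 0.12. *HES4* had no close match, its nearest being *BCL6*, which encodes a transcriptional repressor, at 0.32, and *TMEM86A* at 0.34. *SMAD6* likewise had only distant ones, *CLDN11* at 0.36 and *CERS4* at 0.37. *HES4*, and *SMAD6* in PEO1, had few counts, and the part of low counts in these distances was not tested.

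The wider pathway was described from 10 lists of 114 genes, of which 99 were tested. In PEO1, 34 of the 99 passed (15 higher, 19 lower), or 34.3%, against 29.3% of all tested genes. In COV362, 3 passed, all lower: the TGF-beta receptor gene *TGFBR2* (-0.67 ± 0.13, edgeR adjusted p = 0.0314), the Notch ligand gene *JAG2* (-1.14 ± 0.24, adjusted p = 0.0396) and the Notch coactivator gene *MAML2* (-1.15 ± 0.24, adjusted p = 0.0444). The median log2 change of list genes averaging at least 1 CPM, a limit set after the data were seen, was -0.09 in PEO1 (84 genes) and -0.07 in COV362 (90 genes), against -0.00 in PEO1 and -0.02 in COV362 for all tested genes at that level.

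Of 13 tested genes listed as BMP and TGF-beta ligands, 3 rose and 4 fell in PEO1. The 4 include *BMP1*, which encodes a protease and not a ligand. These counts and those of the lists below stand against 29.3% of all tested genes called in PEO1. *TGFB2* had 3.64, 7.14 and 6.7 CPM in PEO1 with prexasertib, against 1.17, 2.55 and 1.48 CPM with DMSO, and rose by 1.73 ± 0.43 on the log2 scale (edgeR adjusted p = 0.00896). *TGFB3* rose by 1.59 ± 0.36 (adjusted p = 0.00461), while *TGFB1*, among the 4 that fell, fell by 1.02 ± 0.26 (edgeR adjusted p = 0.00927). Of 13 receptors, 3 rose and 1 fell: the activin receptor gene *ACVR2B* rose by 1.06 ± 0.20 (adjusted p = 0.00154), and *ENG*, which encodes the co-receptor endoglin, fell by 1.13 ± 0.17 (adjusted p = 0.000371). Of 6 SMAD transducers, 1 rose and 2 fell. *SMAD1*, which carries the BMP signal, had 7.58, 7.2 and 7.97 CPM in PEO1 with prexasertib, against 13.8, 12.3 and 13.9 CPM with DMSO, and fell by 0.81 ± 0.16 (adjusted p = 0.00192). *SMAD3*, which carries the TGF-beta signal, had 101, 104 and 104 CPM with prexasertib, against 171, 167 and 179 CPM with DMSO, and fell by 0.74 ± 0.10 (adjusted p = 0.00019). For neither of the 2 SMAD genes did the PEO1 groups overlap.

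Of 17 antagonists and corepressors, 2 rose and 4 fell in PEO1, among them the latent TGF-beta binding gene *LTBP2* (-1.64 ± 0.18) and the BMP antagonist gene *NOG* (-1.48 ± 0.26). Of 8 TGF-beta target genes, 2 rose and 1 fell: *ADAMTS1* rose by 1.73 ± 0.22 and *TGFBI* fell by 1.39 ± 0.12. On the Notch side, 1 of 4 ligand genes fell, *JAG2* (-1.23 ± 0.21), and 1 of 3 receptor genes fell, *NOTCH3* (-1.60 ± 0.32). With so few genes, these counts are near the 29.3% of all tested genes called in PEO1. *NOTCH3* had 12.8, 9.95 and 9.78 CPM in PEO1 with prexasertib, against 33.2, 32.4 and 32.8 CPM with DMSO. Of 22 nuclear factors and modifiers of Notch, 2 rose and 1 fell (13.6% called), the last being *NUMBL* (-1.09 ± 0.20). Of 5 tested genes listed as other HES and HEY genes and Notch targets, *HES6* rose (1.38 ± 0.39, adjusted p = 0.0162). Only 2 of the 5 averaged at least 1 CPM in PEO1. Of 8 helix-loop-helix partners and Groucho corepressors, 1 rose and 4 fell, with the corepressor gene *TLE2* at -1.46 ± 0.37 and *AES* at -0.96 ± 0.22.

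**Figure D4:**
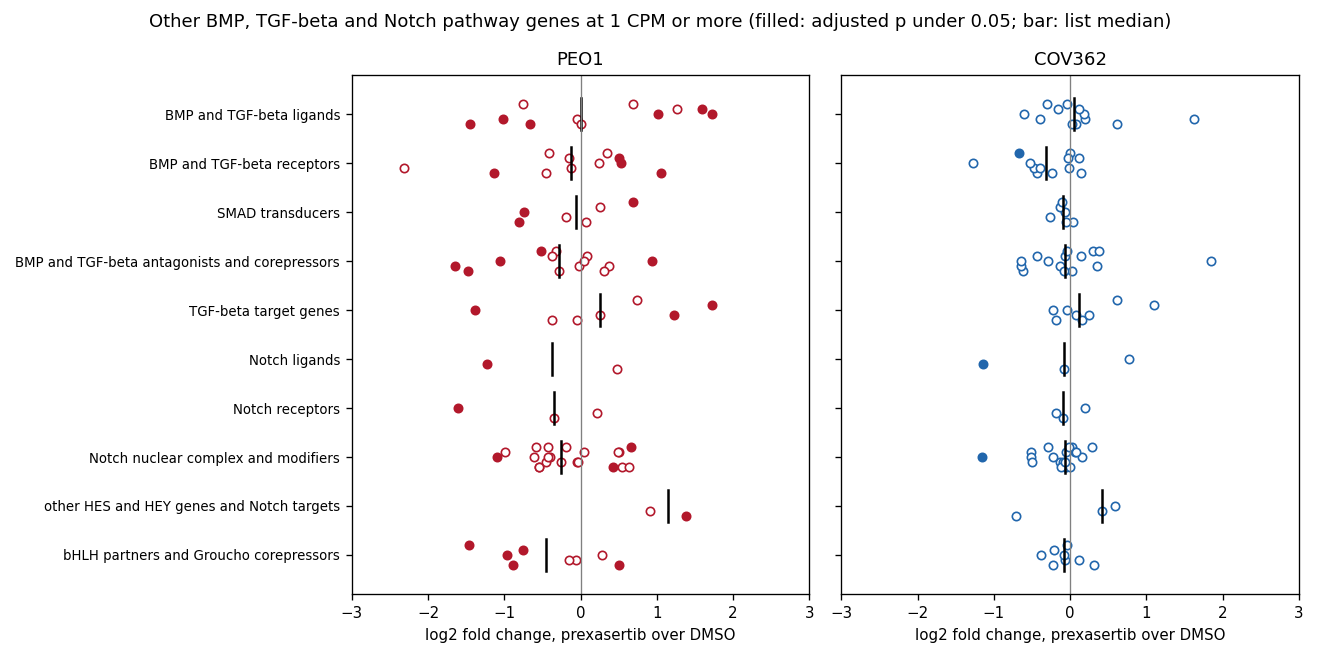
Log2 fold change of prexasertib over DMSO in PEO1 (left) and COV362 (right) for tested pathway genes averaging at least 1 CPM in the line, by list, with filled points for an adjusted p under 0.05 and a bar at each list's median. Filled points lie on both sides of 0 in PEO1, and the 3 in COV362 lie below 0.

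The difference between the lines passed for 11 of the 99 pathway genes, or 11.1%, against 6.10% of all tested genes. It was 1.63 for *BMP4*, -0.85 for *SMAD1*, -0.68 for *SMAD3*, -1.13 for *ENG*, -1.36 for *TGFBI* and 1.45 for *ACVR2B* on the log2 scale. *BMP4*, a BMP ligand gene, had 2.82, 2.31 and 2.41 CPM in PEO1 with prexasertib and 1.24, 0.814 and 1.65 CPM with DMSO, against 36.7, 27 and 34.5 CPM in COV362 with prexasertib and 62.9, 38.2 and 49.4 CPM with DMSO. Treated libraries were thus above DMSO libraries in PEO1 and below them in COV362. The change passed in PEO1 (1.02 ± 0.29, edgeR adjusted p = 0.0172) but not in COV362 (-0.61 ± 0.21, edgeR adjusted p = 0.231). Between the DMSO groups 65 of the 99 passed, or 65.7%, against 57.7% of all tested genes. *BMP4* was lower in PEO1 DMSO, with a log2 difference of -5.33, and *NOTCH3* was higher, with one of 3.98.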

How the data were processed

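Total RNA was made into libraries with an unstranded polyA kit (TruSeq RNA Library Prep Kit v2), per the labels' protocols. STAR and featureCounts 1.4.6 of Subread were used with build hg38, per the submitters' processing notes; their settings are not given in the sources used here. The authors deposited raw counts per gene for 12 libraries, without normalization, and, per the file headers, exon coordinates and lengths in bases.

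Counts were filtered in edgeR 4.0.16 (R 4.3.3, limma 3.58.1) with filterByExpr (minimum count 10, minimum total 15) and scaled by TMM. A quasi-likelihood F-test on 1 fit of 4 group means (8 residual degrees of freedom) gave 4 comparisons, with Benjamini-Hochberg adjustment over 14498 genes. The procedure was tested on simulated data. DESeq2 1.42.0, limma-voom, other filters and scalings, a replicate block, a length correction, and leaving out libraries were alternatives. The replicate block gave each letter 1 effect common to both lines. The block within each line and the length and GC correction were added after seeing the data.

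The letters were checked as pairs through the correlation of deviations from group means. Same-letter correlations were 0.41, 0.42 and 0.13 within COV362 and 0.35, 0.16 and 0.15 between the DMSO groups, all over 0.1, so the blocked value is given there where it changes a call. For C, however, a library of another letter correlated more highly in both (0.14 within COV362 and 0.24 between the DMSO groups).

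The 9 members and the pathway lists were chosen with earlier results of these data known. All members are named. Of each list, those named come from the 2 called genes with the largest change and at least 1 CPM in a comparison. *BMP1* and *TGFB1* are named outside this rule. A pathway gene that this rule names is not reported here. The genes nearest to each called member are the 2 with the smallest RMS difference. Sequences are RefSeq's (GRCh38.p14). Counts alone limit precision for *HES4*, *HEY1* and *SMAD6* in PEO1.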

Additional observations from a re-analysis of the deposited data

Results flagged for a closer look

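The change with prexasertib differed between the lines for *ID2*, by 1.85 on the log2 scale (PEO1 minus COV362), and for *HES1*, by 1.29, each by the interaction term of the edgeR fit. *ID2* averaged 60.4 ± 9.88 CPM in PEO1 with prexasertib and 25.9 ± 4.31 CPM with DMSO, and 24 ± 9.09 CPM in COV362 with prexasertib and 37.1 ± 8.89 CPM with DMSO. *HES1* averaged 20.2 ± 4.78 CPM in PEO1 with prexasertib and 8.74 ± 1.48 CPM with DMSO, and 20.6 ± 2.15 CPM in COV362 with prexasertib and 21.9 ± 2.42 CPM with DMSO (SD, n = 3 each).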

How the results depend on the processing

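Of the member values under the alternatives, 733 kept their direction and their side of the threshold, 36 came to pass it, 19 no longer passed and 18 changed sign. The calls below are at an adjusted p under 0.05 unless another is named, and the causes of the shifts were not tested. In COV362, 0 members and 120 genes were called. DESeq2 called 524 genes, the replicate block 2 members and 1399 genes, the length correction 1 and 246, both together 3 and 1548, the fit of the compared libraries alone 10 genes, the fit without the A libraries 1 member and 330 genes, an adjusted p under 0.01 35 genes, the line-specific block 3 and 1977, and the length and GC correction 2 and 504. In PEO1, 6 members and 4249 genes were called, against 6926 genes with the block, 7272 with block and length, 7446 with the line-specific block, and 3 members and 2319 genes at 0.01. For the difference, 2 members and 885 genes were called, against 1925 genes with DESeq2, 4 and 4219 with the block, 1638 genes with the length correction, 4 and 4400 with block and length, 4 and 4906 with the line-specific block, and 0 and 157 at 0.01. Between the DMSO groups 4 members were called, against 57.7% of all tested genes, and 7 with the block. The share of all tested genes called with that block is not given here, so the rise is not read as a result about the members. By the same check the letters were not taken as pairs in PEO1 (same-letter correlations 0.30, 0.17 and 0.08, and for B 0.22 with another letter). Nor were they between the prexasertib groups (0.27, 0.35 and 0.08), where no other letter correlated more highly. In both, C lay under 0.1, so the PEO1 and difference counts with the block share only a letter. Where letters were taken as pairs, C also correlated more highly with another letter (0.14 within COV362, 0.24 between the DMSO groups). The 2 members gained for the difference with the block were *ID1* (-0.86, edgeR adjusted p = 0.00325) and *ID3* (-0.67, adjusted p = 0.011), which with the length and GC correction had adjusted p = 0.301 and 0.48. Leaving out each library gave 0 members and 27 to 128 genes in COV362, 3 to 6 and 3011 to 5053 in PEO1, 1 to 2 and 328 to 1756 for the difference, and 4 to 5 and 7513 to 8901 between the DMSO groups. The gene count moved by over 1.5 times in COV362 without COV362 DMSO B or C, COV362 prexasertib C, PEO1 DMSO B, or PEO1 prexasertib B or C (all fewer). For the difference it did so without COV362 DMSO B or C, COV362 prexasertib C, any PEO1 DMSO library, or PEO1 prexasertib A or B (all fewer), and without COV362 prexasertib B (more).

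Changes of sign were in values that did not pass. Without the 4 A libraries, *ID4* in COV362 was -0.12 and the *HES4* difference -0.24. With the length and GC correction, *SMAD7* was 0.02 in PEO1 and its difference 0.15. Without 1 library, *ID3* ran from -0.31 to 0.19, *ID4* from -0.23 to 0.29 and *SMAD7* from -0.19 to 0.02 in COV362, *HEY1* from -0.84 to 0.98 in PEO1, the *HES4* difference from -0.28 to 0.50, and *ID1* between the DMSO groups from -0.23 to 0.28. Depth limits *HES4*, *HEY1* and PEO1 *SMAD6*, with at most 43 counts in a library for the first 2.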
